A study of Mus musculus with 24 samples.

Results

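The genes described here encode the subunits of the receptors for GABA and glutamate, the main inhibitory and excitatory transmitters of the brain. They were chosen by gene symbol: the GABA-A receptor subunits (Gabra, Gabrb, Gabrg, Gabrd, Gabre, Gabrp, Gabrq and Gabrr), the GABA-B subunits (Gabbr), the AMPA (Gria), NMDA (Grin), kainate (Grik) and delta (Grid) glutamate receptor subunits, and the metabotropic glutamate receptors (Grm). The symbols gave 47 genes of the 21370 with a symbol on the array, in 13 families, and all 47 were in the gene table. Their transcripts were followed across 4 tissues and both genotypes of a knockin mouse of Rap1 (gene symbol Terf2ip), a telomere protein that also acts in transcription.

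Transcripts were measured on 1-colour Agilent mouse arrays in Brain, Liver, Heart and Muscle of 6 females, 3 labelled RAP1 MUT (called KI below, mice A, B and C) and 3 labelled RAP1 WT (mice D, E and F). In KI mice an isoleucine of RAP1 was replaced by arginine at the endogenous locus by Crispr/Cas9, so that RAP1 no longer binds TRF2. The line was backcrossed to C57BL6, the study writes the genotype as KI/KI and calls the WT mice littermates, and no agent was given to any group. Age was 14 months for 1 mouse of each genotype (C and F) and 15 months for the rest. Each array held the RNA of 1 mouse and 1 tissue, so a group is 3 mice and the spread is that between animals. The sources used here name no brain region or muscle.

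A level is log2 of the processed signal minus the array's 75th percentile, and a probe was counted as well above background where the scanner software marked it so. Between 49.4% and 68.4% of the probes were well above background on an array. Terf2ip was measured on all 24 arrays and ranged from 0.85 to 1.46 in brain, where KI and WT overlapped; its transcript level does not check a point mutation. Brain was checked by 8 neuron markers, of which all 8 were well above background in all 6 brains, with a summed level of 8.56 to 8.83. Some arrays stood apart. The brain of KI mouse C carried hepatocyte transcripts and had low cerebellar transcripts, the liver of KI mouse C carried skeletal muscle transcripts (list mean 0.51 against -6.26 to -5.34 in the other livers), and the muscle of KI mouse B carried milk protein transcripts (mammary list mean -1.35 against -5.11 to -4.53). The hepatocyte, skeletal muscle and mammary lists hold 8 genes each and the cerebellar list 12.

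GABA-A receptors are pentameric chloride channels, most often built of alpha, beta and gamma or delta subunits, whereas the GABA-B receptor is a pair of G-protein-coupled proteins. AMPA, kainate and NMDA receptors are tetrameric cation channels, and the metabotropic receptors signal through G proteins from both sides of the synapse. The choice of subunits differs between brain regions and cell types. Gabra6, for example, is largely restricted to granule cells of the cerebellum.

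Promoters are shown for 4 genes whose patterns the results turn on. Gabra6 had the widest spread among brains, and Gria2 was well above background in brain and nowhere else. Gabbr1 was measured on every array by its first probe with its level highest in brain, and Gabrr1 was highest in liver. Each run covers 250 bases before to 50 bases after the annotated start in RefSeq (GRCm38.p6), on the gene's own strand, with each CG pair in capitals. The Gabra6 promoter lies at chr11:42321023-42321322 (minus strand), that of Gria2 at chr3:80802786-80803085 (minus), that of Gabbr1 at chr17:37045716-37046015 (plus) and that of Gabrr1 at chr4:33132306-33132605 (plus).
Gabra6: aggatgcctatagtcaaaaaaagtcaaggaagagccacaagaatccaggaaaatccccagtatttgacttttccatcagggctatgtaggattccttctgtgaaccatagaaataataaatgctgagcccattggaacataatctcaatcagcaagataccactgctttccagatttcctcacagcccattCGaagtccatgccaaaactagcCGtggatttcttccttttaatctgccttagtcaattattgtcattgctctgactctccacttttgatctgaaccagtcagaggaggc
Gria2: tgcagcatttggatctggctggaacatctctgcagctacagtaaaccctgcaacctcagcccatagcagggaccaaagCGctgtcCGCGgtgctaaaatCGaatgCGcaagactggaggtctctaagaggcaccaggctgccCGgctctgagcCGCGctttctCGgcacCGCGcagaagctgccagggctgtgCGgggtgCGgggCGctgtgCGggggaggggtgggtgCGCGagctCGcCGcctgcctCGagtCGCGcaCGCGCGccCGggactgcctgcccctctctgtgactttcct
Gabbr1: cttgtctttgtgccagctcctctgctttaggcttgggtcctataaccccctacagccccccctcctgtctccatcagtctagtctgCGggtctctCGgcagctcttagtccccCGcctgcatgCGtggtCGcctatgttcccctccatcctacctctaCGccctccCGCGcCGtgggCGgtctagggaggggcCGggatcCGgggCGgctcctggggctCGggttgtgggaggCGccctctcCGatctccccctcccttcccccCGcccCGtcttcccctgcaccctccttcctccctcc
Gabrr1: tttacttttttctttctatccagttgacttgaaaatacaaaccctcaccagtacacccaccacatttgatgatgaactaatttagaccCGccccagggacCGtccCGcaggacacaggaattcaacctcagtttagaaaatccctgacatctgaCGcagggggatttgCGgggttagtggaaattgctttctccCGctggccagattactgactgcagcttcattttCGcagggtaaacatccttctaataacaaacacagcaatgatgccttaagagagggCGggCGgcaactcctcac

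The Gabra6 window held 2 CG pairs, and 23.3% of all 32851 promoters held as few. Gria2 stood at the other end with 26, a number that 16.9% of promoters reach. Gabbr1 held 18 and Gabrr1 held 9. Promoters were matched for 32 of the member genes (39 promoters, since some genes have several starts), with a median of 12 CG pairs against 7 over all promoters. On both strands, the GC box GGGCGG was found in 19 of the 39 (35.7% of all promoters hold it), CCAAT in 16 (37.4%) and TATAAA in 4 (13.6%).

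Most subunits were transcribed in brain at levels well above background, and many could be measured elsewhere too. On all 6 brain arrays 43 of the 47 genes were well above background, against 73% of all genes. In liver 13 of them reached this on all 6 arrays (all genes 62.5%), in heart 19 (67.4%) and in muscle 12 (60.9%). The remaining 4 in brain were Gabrp and Gabrq, above background in 2 and 3 brains, and Gabrr3 and Grm6, above it in none. Grm6, the receptor of retinal ON bipolar cells, did not reach that on any of the 24 arrays, and Gabrr3 on 1 liver alone.

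A set of 7 genes was well above background on all 6 brains and on no other array: Gabra5, Gabra6, Gabrb1, Gabrg1, Gria2, Grik2 and Grm3. Of all genes 1.95% had this pattern. Another 9 were well above background on all 24 arrays, namely Gabbr1, Gabra3, Gabrr1, Gabrr2, Grik5, Grin3b, Grm2, Grm4 and Grm5. In all, 21 subunits were well above background on all 6 arrays of liver, heart or muscle, among them Gabbr2, Gabra2, Gabrb2, Gabrd, Gabre, Gabrg3, Grid1, Grik4, Grin2b, Grin2c and Grin2d beside the 9. Detection was counted with the probe of highest mean for each gene, and other probes of several of these genes differed. Of the 8 neuron markers, 4 were well above background on all 6 livers, 5 on all 6 hearts and 5 on all 6 muscles, with summed levels of 3.07 to 5.65, 5.83 to 6.83 and 5.18 to 6.31. The neurofilament gene Nefl did not reach that level in any liver, heart or muscle. The part of nerve fibres in these signals was not tested.

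**Figure D1:**
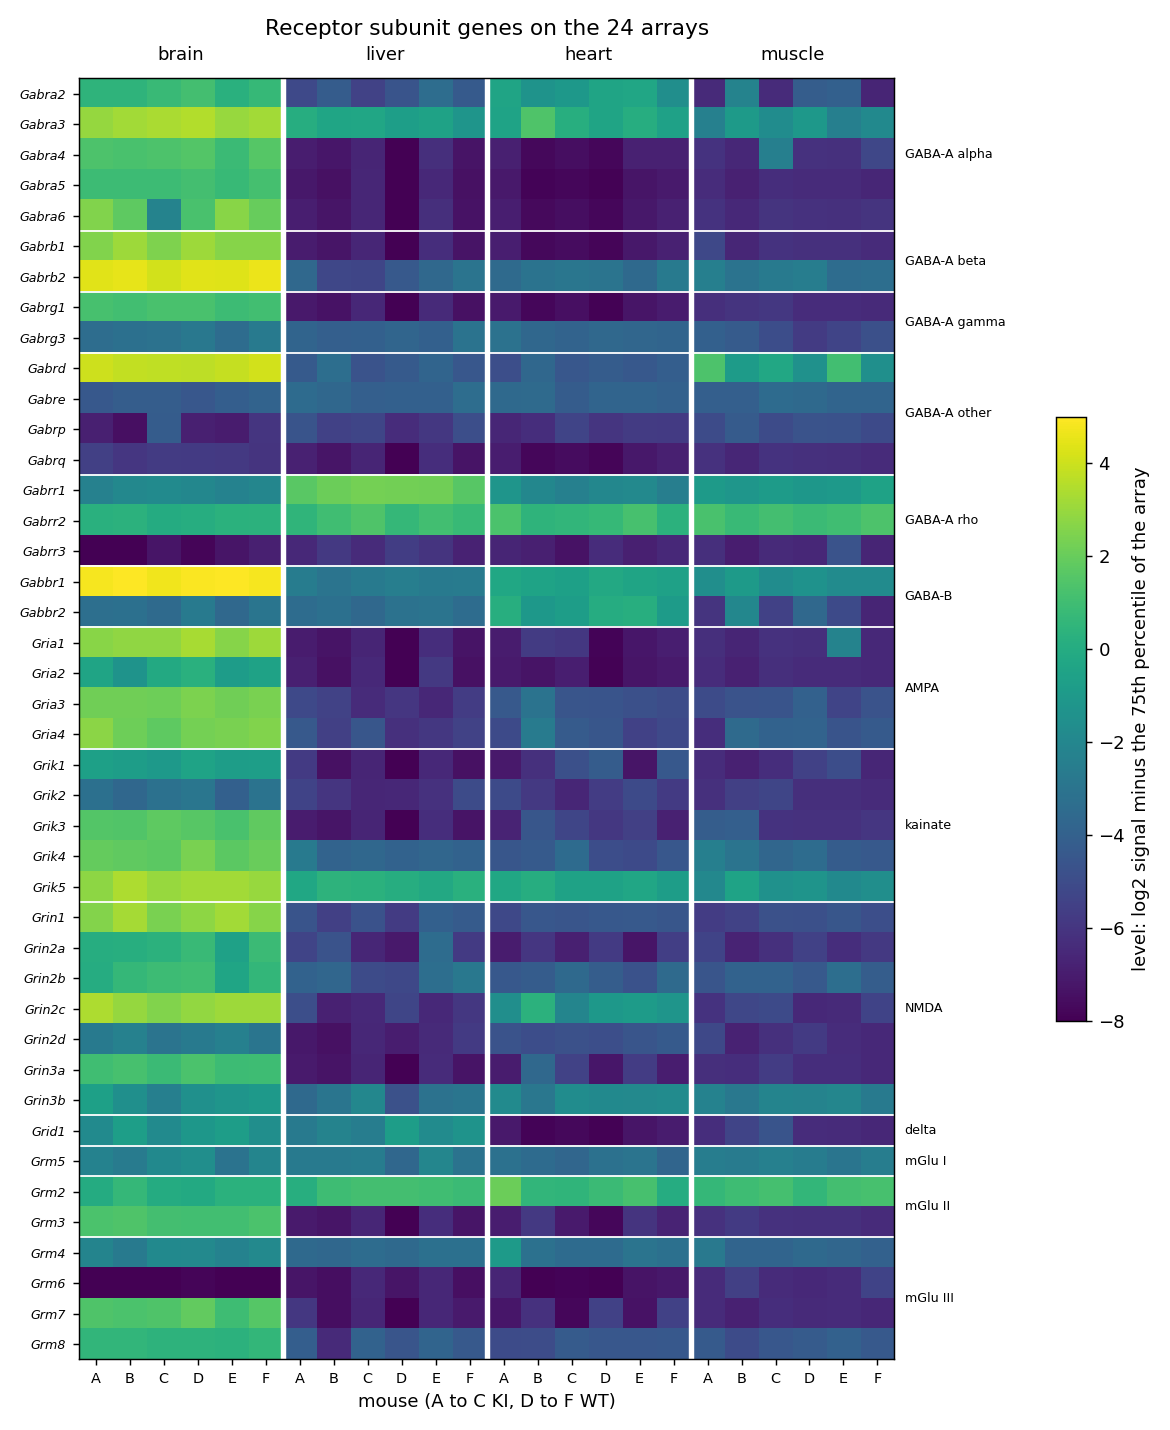
Levels of 42 receptor subunit genes on the 24 arrays, as log2 signal minus the 75th percentile of the array (colour), with genes in rows by family, and mice A to C (KI) and D to F (WT) in columns within each tissue. Brain columns are high for most rows, while Gabrr1 is highest in liver, at 1.63 to 2.26, and Gabra6 is low in the brain of mouse C, at -2.17.

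Brain was compared with each other tissue in 1 limma fit over 21200 genes and 24 arrays, where a gene was called at an adjusted p under 0.05 and a log2 difference of at least 1. Of the 47 subunits, 36 were called higher in brain than in liver, 35 than in heart and 37 than in muscle, while 24.1%, 20.5% and 21.2% of all genes were. Higher in brain than in all 3 were 32 of 47, against 13% of all genes. The median difference of the 47 was 5.56 against liver, 5.08 against heart and 5.35 against muscle. Over all genes the medians were -0.52, -0.42 and -0.67, a shift that quantile normalization moved to -0.07, -0.01 and -0.06, with member medians of 5.53, 5.27 and 5.77. In a bulk extract, fewer cells of a type and less RNA per cell cannot be told apart.

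Lower in brain than in liver were 4 (Gabrp, Gabrr1, Gabrr3 and Grm6), where 36.1% of all genes were lower. Against heart 1 was called lower, Gabbr2 (28.1% of all genes). Against muscle the 4 were those called against liver (41.7% of all genes). Of these, Gabrr1 and Gabbr2 alone were well above background in all 6 brains. Gabrp, Gabrr3 and Grm6 lay at or near background in the tissues compared, so no fold is given for them, and with genes required to be well above background in a group 1 of the 47 stayed lower in brain than in liver and 1 in muscle. Neither higher nor lower were 7, 11 and 6 genes. The split of calls depended on the scaling: of all genes called, 40.1%, 42.1% and 33.7% were higher in brain against liver, heart and muscle, and 52.3%, 51.3% and 54.4% after quantile normalization.

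**Figure D2:**
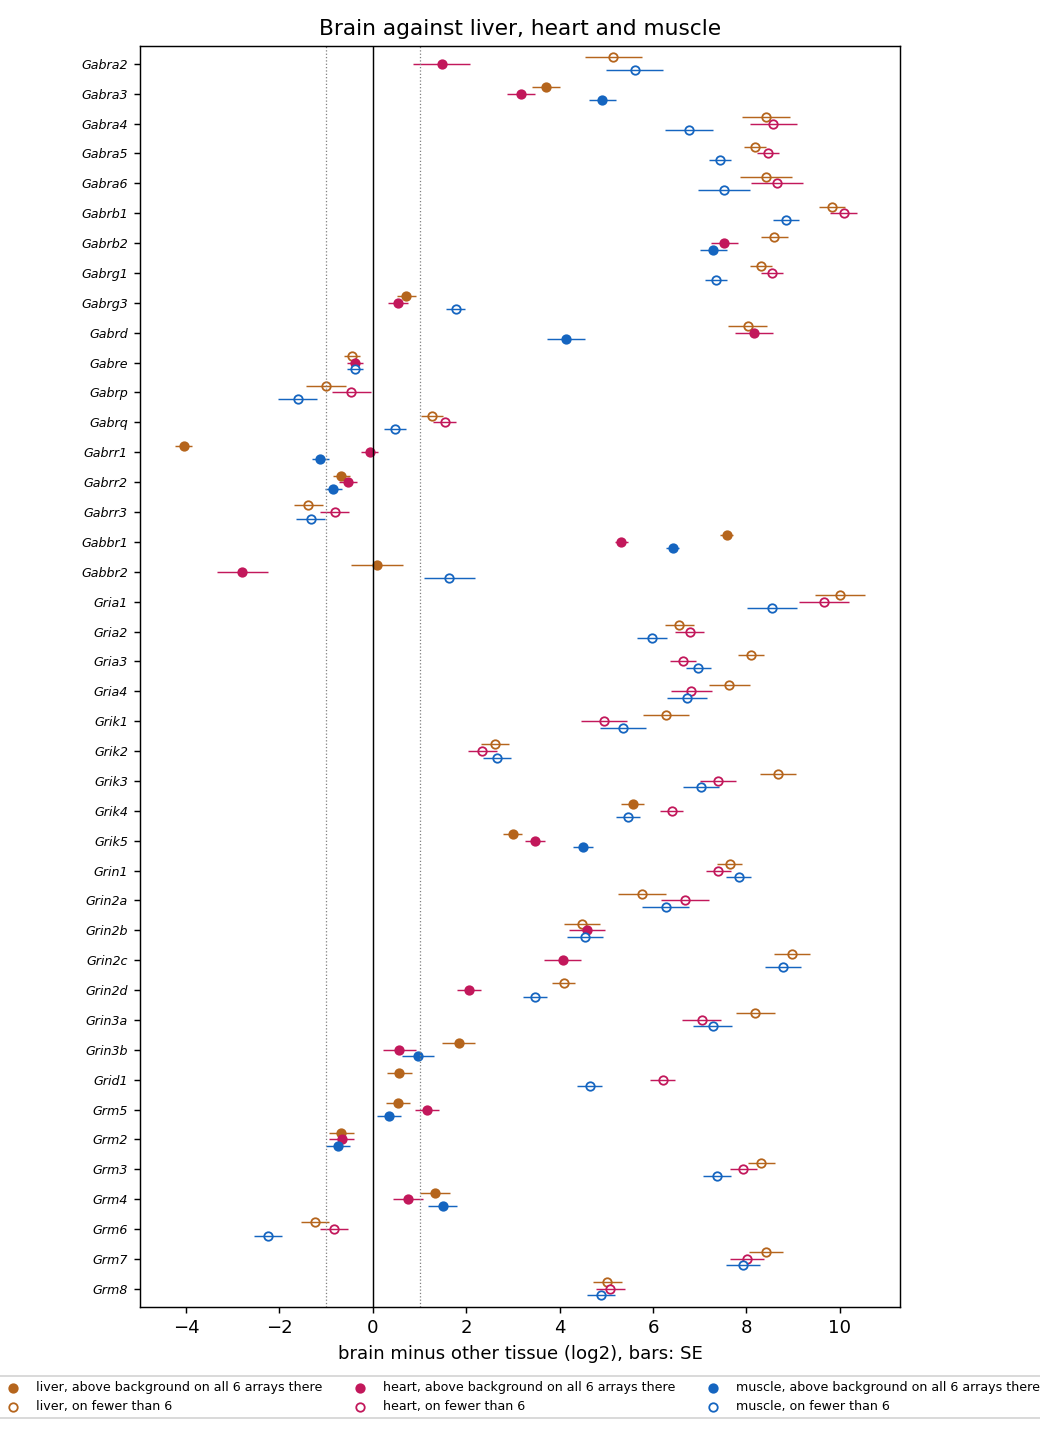
Difference in level (log2) between brain and liver, heart or muscle for 42 subunit genes, with bars of 1 SE from the fit of 24 arrays. Filled points mark tissues in which the gene was well above background on all 6 arrays, and the difference runs from -4.05 (Gabrr1 against liver) to 10.08 (Gabrb1 against heart).

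Of the alpha subunits, which help to form the GABA site and, next to gamma, the benzodiazepine site, Gabra2, Gabra3, Gabra4, Gabra5 and Gabra6 were called higher in brain than in all 3 other tissues. Gabra4 and Gabra5, partners of extrasynaptic receptors, were higher by 8.58 and 8.47 against heart, where neither was well above background on any array (at least 107-fold and 83.2-fold). Gabra6 was at least 85.6-fold higher in brain than in liver, at least 108-fold than in heart and at least 56.8-fold than in muscle.

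Gabra3 and Gabra2 had clear signals outside brain with their first probes. Gabra3, an alpha subunit of monoaminergic and thalamic neurons, was well above background on all 24 arrays. Its levels were 2.97 to 3.52 in brain, -1.22 to 0.12 in liver, -0.58 to 1.42 in heart and -2.39 to -0.94 in muscle, so brain did not overlap any of them. The differences were 3.70, 3.17 and 4.92 (SE 0.30 each). The second probe of Gabra3 was well above background on 6 brains (-4.50 to -3.71), 1 liver, 2 hearts and no muscle. With it the liver of mouse A (-4.48) overlapped brain. Gabra2 was higher in brain by 5.15 against liver and 5.61 against muscle but by 1.48 against heart (SE 0.61, limma adjusted p = 0.0361), where all 6 arrays were well above background.

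Of the beta subunits, which carry the GABA site together with alpha, Gabrb1 and Gabrb2 were called higher in brain than in all 3 tissues. Gabrb1 was at least 225-fold higher than in liver, at least 285-fold than in heart and at least 149-fold than in muscle. Gabrb2, the most widespread beta subunit of adult brain, ranged from 4.12 to 4.64 in brain (median 4.42). It was nevertheless well above background on all 6 hearts (-3.56 to -2.72) and all 6 muscles (-3.41 to -2.37), 7.53 and 7.29 below brain (SE 0.28).

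Of the gamma subunits, which place the receptor at the synapse, Gabrg1 was called higher in brain than in all 3 tissues. Gabrg3, by its first probe, was not. Gabrg1 was at least 73.7-fold, 93.3-fold and 48.9-fold higher in brain than in liver, heart and muscle. With that probe Gabrg3 was higher by 0.71, 0.54 and 1.77 (SE 0.21), with brain levels of -3.38 to -2.70 that overlapped those of liver and heart. Its second probe was well above background on all 6 brains, at -4.80 to -4.28, and on no liver, heart or muscle array. With this second probe brain overlapped none of them.

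Gabrd, the delta subunit of extrasynaptic receptors, was well above background in all 6 muscles. There its levels were 1.38, -0.85, -0.21, -1.43, 1.04 and -1.54 in mice A to F, against 3.73 to 4.10 in brain. Brain lay above all muscles by 4.14 on average (SE 0.41, limma adjusted p = 3.08e-08), and muscle split into high values in KI mouse A and WT mouse E and lower ones in the others, across genotypes. Against liver and heart the difference was 8.02 and 8.16. Gabre, the epsilon subunit, was near the bottom of the measured range everywhere, with differences of -0.44, -0.39 and -0.39, and Gabrq, the theta subunit, was well above background in 3 brains and nowhere else. Gabrp, the pi subunit of epithelia, was highest in the brain of KI mouse C, at -4.21 against -7.48 to -6.01 in the others.

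The rho subunits, which make the GABA receptors of the retina once called GABA-C, had no member called higher in brain. Gabrr1 was well above background on all 24 arrays. Liver levels were 1.66, 2.07, 2.26, 2.24, 2.16 and 1.63 in mice A to F, and brain levels were -2.27, -1.95, -1.78, -2.01, -2.26 and -2.04. Every liver was above every brain, by 4.05 on the log2 scale or 16.6-fold (SE 0.18, limma adjusted p = 1.66e-13), and KI and WT livers overlapped. Heart did not differ from brain past the test (-0.07, adjusted p = 0.74) and muscle lay 1.12 above brain (adjusted p = 1.74e-05). Gabrr1 has 1 probe. Gabrr2 was 0.67, 0.53 and 0.85 lower in brain than in liver, heart and muscle, below the fold required for a call.

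The GABA-B pair behaved unlike each other. Gabbr1, the subunit that binds GABA, was 4.84, 5.17, 4.71, 4.93, 5.03 and 4.85 in the brains of mice A to F, -0.60 to -0.14 in heart, -1.74 to -0.93 in muscle and -3.0 to -2.43 in liver. These are levels of its first probe, with which the tissues did not overlap. With it brain exceeded liver 191-fold, heart 40.0-fold and muscle 85.6-fold (SE 0.14 on the log2 scale, limma adjusted p = 1.24e-16 against heart). The other probes of Gabbr1 also read every brain above all other arrays, but the other tissues overlapped. The second probe read heart at -3.75 to -3.25 and muscle at -4.84 to -2.82. The remaining probe read liver at -5.66 to -4.06, heart at -4.46 to -3.85 and muscle at -4.76 to -3.76. Gabbr2, the subunit that couples to the G protein, was read by its first probe as 2.80 lower in brain than in heart (6.94-fold, SE 0.55, limma adjusted p = 0.000169) and not different from liver past the test (0.09, adjusted p = 0.878).

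That direction did not hold for the other probes of Gabbr2. With the second probe the 6 hearts were not well above background, and brain was at least 35.6-fold higher (difference 7.23). The third probe gave a difference of 6.29 and at least 17.3-fold. Both read liver well above background on all 6 arrays, close to brain: the second probe was -0.36, -0.22, -0.30, 0.06, -0.99 and 0.27 in brain and -0.15, -0.96, -1.26, -1.93, -0.85 and -2.29 in liver, with overlap. The first probe of Gabbr2 was also the highest in the muscle of mouse B (-2.0 against -6.67 to -3.63), as was the first probe of Gabra2 (-2.20 against -6.64 to -3.99). That muscle carried milk protein transcripts such as Csn1s1 (0.77 against -6.48 to -4.72) and their part in these signals was not tested. Without mouse B, brain exceeded muscle by 2.23 for Gabbr2 and 6.34 for Gabra2, against 1.64 and 5.61 with all mice. The difference of Gabbr2 was 1.24, 1.44 and 1.22 without mouse A, C or F, each short of the call (limma adjusted p = 0.0726, 0.0578 and 0.0762).

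Gabra2 showed the same kind of split. Its second probe read brain 8.17 above heart, at least 69.9-fold, where the first gave 1.48. For Grm5, a group I metabotropic receptor, the first probe differed from heart by 1.15 and the others by 9.63 and 7.16 (at least 448-fold and 40.4-fold). For Grm4, a presynaptic group III receptor, the values were 0.76 and 5.44. These genes were picked out after their values were seen. Of the 21 members with several probes, 17, 17 and 18 were called higher in brain than liver, heart and muscle with the second probe, and counting a gene where any probe passed gave 38 of 47 against each tissue.

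**Figure D3:**
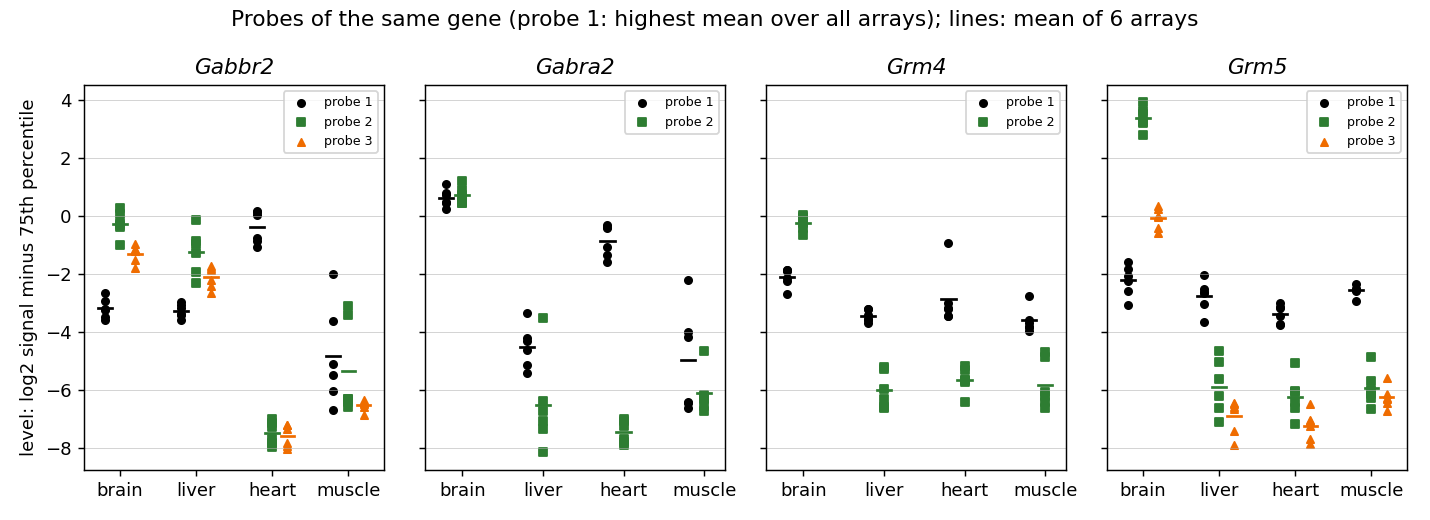
Levels (log2 signal minus the 75th percentile) of the separate probes of Gabbr2, Gabra2, Grm4 and Grm5 in brain, liver, heart and muscle, with 1 point per array and a line at the mean of 6. The first probe of Gabbr2 is higher in heart than in brain, whereas its other probes are 7.23 and 6.29 lower in heart.

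All 4 AMPA subunits, which carry most fast excitation, were called higher in brain than in all 3 tissues. Gria1 was 2.64 to 3.29 in brain (median 2.83), at least 249-fold above liver and at least 316-fold above heart. In muscle it was well above background in WT mouse E alone, at -2.20. Gria2, the subunit whose edited form makes the channel impermeable to calcium, was -0.40, -1.30, -0.13, 0.28, -0.81 and -0.49 in brain and not well above background on any other array, so brain was at least 24.2-fold, 30.6-fold and 16.1-fold above liver, heart and muscle. Gria3 and Gria4 were well above background in 5 and 3 hearts, with differences of 6.64 and 6.82.

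The 5 kainate subunits were also called higher in brain than in all 3 tissues, by amounts that differed widely. Grik3 led with 8.68 against liver (at least 101-fold) by its first probe. Its second probe was at -6.95 to -5.65 in brain, well above background on 1 brain and on no other array. Grik2, a low-affinity pore subunit, was low in brain itself (-4.04 to -2.92) and at least 3.26-fold, 3.99-fold and 2.21-fold above liver, heart and muscle. Grik5, a high-affinity subunit, was well above background on all 24 arrays: 2.80 to 3.38 in brain, -0.24 to 0.39 in liver, -0.79 to 0.12 in heart and -1.94 to -0.44 in muscle. Brain overlapped none of these, with differences of 2.99, 3.47 and 4.50 (SE 0.21). Grik4 was above background on 6 livers, 5 hearts and 4 muscles, 5.56, 6.40 and 5.46 below brain, and Grik1 lay 6.28, 4.96 and 5.35 below.

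The delta receptors are synaptic organisers with little channel activity of their own. Grid1 was transcribed in liver: -2.64, -2.16, -2.51, -0.78, -1.71 and -1.30 in mice A to F, against -1.78, -0.71, -1.77, -1.11, -0.76 and -1.56 in brain. The ranges overlapped and the difference of 0.57 (SE 0.27) did not pass the test (limma adjusted p = 0.0607). Heart and muscle were not well above background, at least 17.5-fold and 9.17-fold below brain.

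Of the 7 NMDA subunits, 6 were called higher in brain than in all 3 tissues. Grin1, the obligatory subunit, was 2.61, 3.24, 2.38, 2.80, 3.21 and 2.66 in brain and differed by 7.64, 7.40 and 7.84 from liver, heart and muscle (at least 148-fold for muscle). Grin2a and Grin2b, the forebrain glutamate-binding subunits, differed by 5.77 and 4.48 from liver, 6.69 and 4.59 from heart, and 6.27 and 4.54 from muscle with their first probes. The second probe of Grin2a read brain lower, at -4.14 to -2.45, and closer to the other tissues. With it liver was at -5.52 to -4.61, heart at -6.30 to -5.41 and muscle at -6.51 to -4.67. Grin2b was well above background on all 6 hearts at -4.74 to -3.51 with its first probe. Its second probe was well above background on all 6 brains, at 1.05 to 2.01, and on no liver, heart or muscle array.

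Grin2c, the subunit of cerebellar granule cells, was well above background on all 6 hearts, 2 livers and no muscle. Its heart levels were -1.59, 0.37, -2.07, -1.07, -0.85 and -1.2, against 2.53 to 3.41 in brain and -6.82 to -4.88 in liver. Every heart lay between the livers and the brains, 16.7-fold below brain (difference 4.06, SE 0.39, limma adjusted p = 1.91e-08), while muscle was at least 178-fold below. Grin2d was well above background on all 6 hearts as well, 2.05 below brain. Grin3b, an inhibitory subunit of motor neurons, was above background everywhere, higher in brain than in liver by 1.84 (adjusted p = 9.11e-05) and not past the call in heart (0.57, adjusted p = 0.146) or muscle (0.96), whereas Grin3a differed by 8.19, 7.04 and 7.27.

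Heart arrays differed among themselves in these genes. The heart of KI mouse B was the highest for Grin2c (0.37), Gabra3 (1.42 against -0.58 to 0.15), Gria3 (-3.06 against -4.97 to -4.37) and Gria4 (-2.59 against -5.48 to -4.28), genes picked after their values were seen. The same heart was the highest for the atrial transcript Myl7 (7.44 against -3.26 to 4.27). All 8 cardiomyocyte markers were well above background on all 6 hearts, with a list mean of 7.98 in this heart and 5.50 to 7.42 in the others. The heart of WT mouse E had the next highest Myl7 and list mean (4.27 and 7.42). In that heart Grin2c was -0.85, the next highest, Gabra3 was 0.11, Gria3 -4.83 and Gria4 -5.48. The part of Myl7 and the other cardiomyocyte transcripts in the receptor signals was not tested.

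Of the group I metabotropic receptors, which act through Gq and calcium release, Grm5 differed by 0.53 and 0.34 from liver and muscle with its first probe.

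Group II and III receptors, which damp transmitter release, differed among themselves. Grm3, found in neurons and astrocytes, was at least 78.1-fold, 98.9-fold and 51.9-fold higher in brain than in liver, heart and muscle. Grm2 was well above background on all 24 arrays with no tissue apart: brain was 0.67, 0.67 and 0.75 lower. Grm7 and Grm8 were called higher in brain than in all 3 tissues, Grm7 by 8.42, 8.01 and 7.92 and Grm8 by 5.02, 5.08 and 4.89. By its first probe Grm4 was higher by 1.32 and 1.49 than in liver and muscle and by 0.76 than in heart, where mouse A (-0.92) stood apart from the others (-3.46 to -3.01). Its second probe read brain at -0.64 to 0.05, liver at -6.61 to -5.22 and muscle at -6.62 to -4.69. No liver or muscle array was well above background with it.

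Several GABA-A subunit genes lie side by side in the genome. On chromosome 11, Gabra6 and Gabrb2 lie next to each other with no coding gene between them, and both were higher in brain than in all 3 tissues. On chromosome 5, in a row with 1 other coding gene inside it, the same held for Gabrg1, Gabra2, Gabra4 and Gabrb1. On chromosome 7, Gabra5 was called and its neighbour Gabrg3, by its first probe, was not. On the X chromosome Gabra3 was called while Gabre and Gabrq were not. Gabrr2 and Gabrr1, neighbours on chromosome 4, were both measured on all 24 arrays and neither was higher in brain.

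KI and WT mice were then compared within each tissue, among genes well above background on all 3 arrays of a genotype. In brain 43 subunits were tested and none passed (limma, adjusted p), as was the case for 0% of 16073 genes. At an unadjusted p under 0.05 there were also 0 of 43 (0.79% of all genes), and the smallest adjusted p of a member was 1. The difference was below 0 in 34 of 43, with a median of -0.11 and a range from -1.27 to 0.17. Over all genes 59% were below 0 and the median was -0.03. The median SE of the members, 0.21, was larger than most of these differences.

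The lean towards lower values in KI brains came partly from single arrays. It held for 26 of 43 without the brain of KI mouse C (median -0.04), for 26 of 44 without WT mouse D, and for 36 of 43 without WT mouse E, where 4 members reached an unadjusted p under 0.05 (2.53% of all genes). The brain of mouse E was the lowest for Grin2a (-0.58 against 0.10 to 0.84), Grin2b (-0.37 against 0.05 to 1.03), Grik2 and Grm5. All 4 AMPA subunits were below 0 in KI, with a median of -0.21, and of the NMDA subunits 6 of 7, with a median of -0.07. Without the brain of mouse C these were 3 of 4 (median -0.19) and 2 of 7 (median 0.05). Both group II metabotropic receptors, Grm2 and Grm3, lay above 0 (median 0.10, and 0.20 without mouse C).

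In brain 1 member had no overlap between genotypes, and 2.86% of all genes had none. Grik4 and Gabrg3 were among the 3 members with the smallest p, with differences of -0.23 (SE 0.18) and -0.25 (SE 0.21). For Grik4 the KI brains stood at 1.91, 1.84 and 1.71 and the WT brains at 2.37, 1.75 and 2.04, with overlap.

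**Figure D4:**
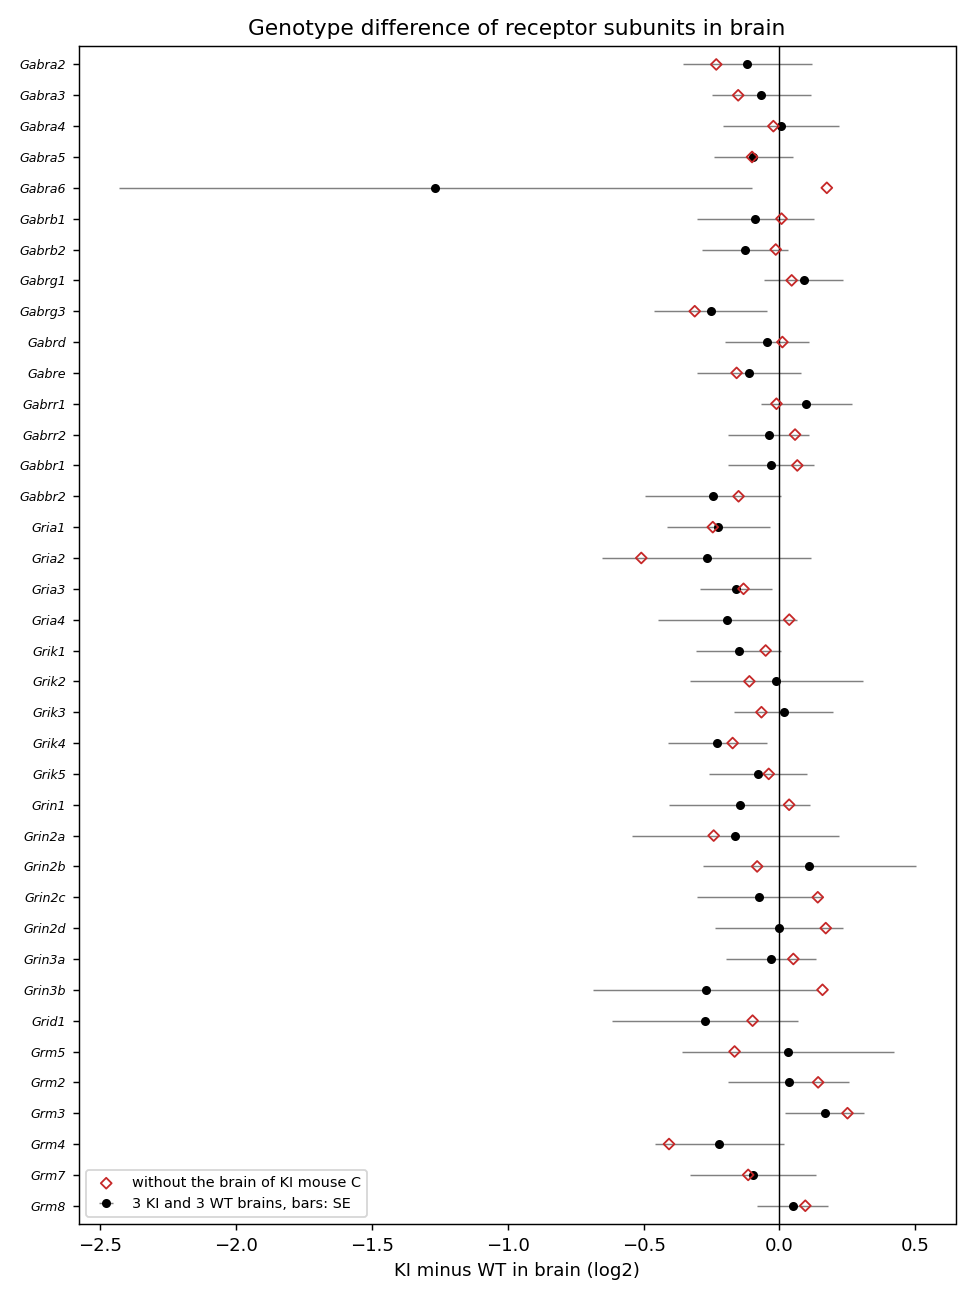
KI minus WT difference (log2) in brain for 38 of the subunits tested, with bars of 1 SE (3 KI and 3 WT brains), and the same difference without the brain of KI mouse C as open diamonds. Differences run from -1.27 to 0.17, and Gabra6 moves from -1.27 to 0.17 when that brain is left out.

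The largest difference of a member, that of Gabra6, rested on a single animal. The KI brains were 2.53, 1.79 and -2.17 and the WT brains 1.26, 2.71 and 1.97. Mice A and B lay within the WT range and mouse C far below it. The means were 0.72 ± 2.53 (SD, n = 3) and 1.98 ± 0.73 (SD, n = 3), and the difference of -1.27 (SE 1.17, limma adjusted p = 1) became 0.17 without mouse C. Within array slides it was 1.27 on slide 1, with 1 KI and 1 WT brain, and -2.53 on slide 2, with KI brains B and C and WT brains E and F.

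Among the members, Gabra6 had a standard deviation of 1.80 over the 6 brains, and the median member 0.26. The brain of mouse C differed from the mean of the other 5 by -4.22 for Gabra6, -1.19 for Grin3b, -0.67 for Gria4 and -0.56 for Grin2c. Of the 43 subunits measured in all brains, 19 were lowest in mouse C, against 31.4% of all genes. Others lay above the mean of the other brains, Gria2 by 0.42, Grin2b by 0.53 and Grm5 by 0.49.

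Cerebellar markers moved with Gabra6. Of 12 granule and Purkinje cell markers, 11 were well above background in all 6 brains and all 11 were lowest in mouse C. Pcp2, a Purkinje cell gene, was 2.16 there and 5.19 to 6.12 in the others, and the granule cell gene Neurod1 was -1.92 against 0.31 to 1.87. The list mean was 1.80, 1.36, -0.68, 0.99, 1.85 and 1.41 in mice A to F. The mean of 8 hepatocyte markers was 5.21 in mouse C and -2.67 to -0.58 in the other brains, with Alb at 6.53 against -7.11 to -0.82. The share of cerebellum in each sample and the part of the hepatocyte transcripts were not tested.

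**Figure D5:**
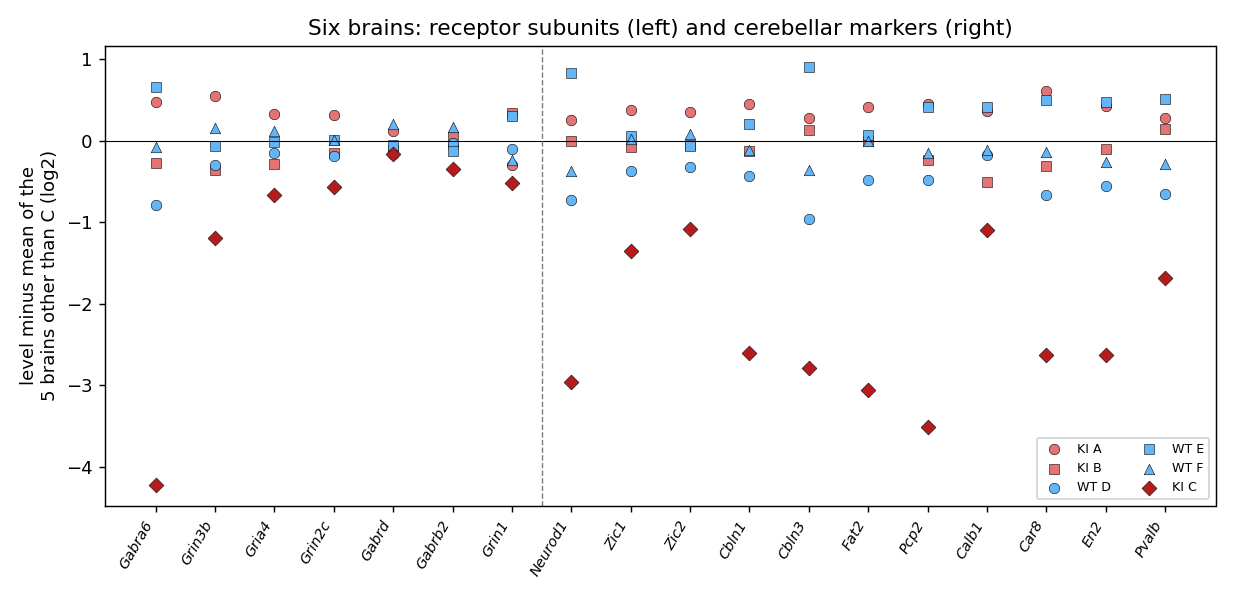
Level of some receptor subunits and of cerebellar markers in each brain minus the mean of the 5 brains other than that of KI mouse C (log2), with 1 point per mouse. The brain of mouse C differs from the mean of the others by -4.22 for Gabra6 and -3.51 for Pcp2. The other 5 brains lie around 0 by construction.

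In liver 21 subunits were tested and none passed (0% of 14092 genes). At an unadjusted p under 0.05 there were 2, where 11.7% of all genes were, and the genotypes did not overlap for 2, where 19.7% did not, so neither count stood out. Grid1 was -2.64, -2.16 and -2.51 in KI and -0.78, -1.71 and -1.30 in WT livers. All KI livers were below all WT livers, by 1.18 (SE 0.26, limma unadjusted p = 0.00307, adjusted p = 0.358), and the difference ranged from -1.40 to -0.94 when each array was left out. Gabra3 was 0.12, -0.35 and -0.28 in KI and -0.72, -0.51 and -1.22 in WT livers, higher in KI by 0.64 (SE 0.23, limma adjusted p = 0.402). Gabrb2 followed with -1.05 (SE 0.54). It was well above background on 4 livers and was tested only through the WT group, where it was high. The median of the 21 was -0.20, and 0.04 over all genes. Without the liver of KI mouse C, Grid1 differed by -1.14 and Gabra3 by 0.70.

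In heart 23 subunits were tested with none past the adjusted threshold (0% of 14931 genes), 1 at an unadjusted p under 0.05 (1.64% of all genes) and 1 without overlap (5.04%). Grik4 was -4.52, -4.30 and -3.46 in KI and -4.91, -5.09 and -4.48 in WT hearts. Only the KI heart of mouse A lay within the WT range, and the difference was 0.73 (SE 0.30, limma unadjusted p = 0.048, adjusted p = 0.971), or 0.41 without KI mouse C. Grik4 was well above background on 5 hearts, so it was tested through 1 genotype only. Its unadjusted p was 0.05 or more without KI mouse B or C or WT mouse D or E. Gria3 was above all WT hearts in every KI heart, by 0.81 (SE 0.38, limma adjusted p = 0.971), but by 0.34 without mouse B, the heart with the highest Myl7. It was well above background on 5 hearts, and WT mouse F (-4.97) lay under the lowest such level of its array (-4.93). Gria3 was thus tested only through the KI group, where it was high, so the lack of overlap is no support for a KI effect. Grin1 differed by -0.32 (SE 0.21). It was well above background on 5 hearts, and KI mouse A (-5.19) lay under the lowest such level of its array (-5.01). Grin1 was thus tested only through the WT group, where it was high.

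In muscle 14 were tested, with none past the adjusted threshold (0% of 13517 genes), 1 at an unadjusted p under 0.05 (0.851%) and 0 without overlap (3.54%). The 1 was Grik4, at -2.41, -3.01 and -3.71 in KI and -3.40, -4.23 and -4.38 in WT muscles. It was well above background on 4 muscles, and WT mouse E lay under the lowest such level of its array (-4.21). Grik4 was thus tested only through the KI group, where it was high, so its p is no support for a KI effect. KI mouse C overlapped the WT values, and the difference was 0.96 (SE 0.40, limma unadjusted p = 0.0463, adjusted p = 1). Without KI mouse B, whose muscle carried milk protein transcripts, it was 0.94 (limma unadjusted p = 0.0908, adjusted p = 1), and without KI mouse A it was 0.64 and without WT mouse E or F 0.85 and 0.78, also with an unadjusted p above 0.05. Gabrb2 and Grm5 followed with 0.37 (SE 0.30) and 0.19 (SE 0.18). A test of whether the KI effect differed between tissues, over 17177 genes and 43 members, called none. Its limma unadjusted p was under 0.05 for 3 members (1.87% of all genes), among them Grid1 (0.00678) and Gabrg3 (0.0249), with adjusted p = 1 for each.

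The listed genes that act with these receptors were all well above background on all 6 brains, many of them elsewhere too, and did not pass the test for genotype either. All 14 auxiliary subunits of AMPA and kainate receptors, such as the Cacng and Cnih genes that set trafficking and gating, were called higher in brain than in all 3 tissues. So were 5 of 9 genes of GABA synthesis, release and uptake, 7 of 11 for glutamate, 4 of 13 scaffold and trafficking genes of GABA-A receptors, and 8 of 18 scaffolds and kinases of glutamate receptors, against 13% of all genes. Well above background on all 6 livers, hearts and muscles were 10, 12 and 11 of the GABA-A scaffolds and 10, 15 and 12 of the glutamate scaffolds. For the auxiliary subunits these were 4, 6 and 3, for GABA supply 4, 3 and 3, and for glutamate supply 6, 9 and 4. In brain all genes of these lists were tested for genotype and 0 passed (limma, adjusted p), with 1 at an unadjusted p under 0.05 (0.79% of all genes). The medians were 0.12, 0.00, -0.02, -0.05 and -0.02 for GABA supply, glutamate supply, GABA-A scaffolds, auxiliary subunits and glutamate scaffolds, beside -0.03 over all genes.

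One of these genes reached an unadjusted p under 0.05 in brain. Slc6a12, the betaine and GABA transporter of liver and of brain borders, was -1.28, -0.97 and -0.51 in KI and -1.76, -1.41 and -2.05 in WT brains. The genotypes did not overlap, with a difference of 0.82 (SE 0.25, limma unadjusted p = 0.0136, adjusted p = 1), and the highest value was that of mouse C, whose brain carried hepatocyte transcripts. Without that brain the difference was 0.62 (SE 0.23, limma unadjusted p = 0.0327, adjusted p = 1). In liver Slc6a12 lay between 5.38 and 5.46. The smallest p in the other lists belonged to Slc1a2, an astrocyte glutamate transporter (0.46, SE 0.23), Ubqln1 (-0.14, SE 0.14), Cacng5 (0.36, SE 0.19) and Shank2 (0.36, SE 0.23).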

How the data were processed

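The deposited signal intensity of each spot had been background-corrected and detrended by the authors with Agilent Feature Extraction 12.0.3.1 (1 colour, Cy3; per the file headers), with no normalization between arrays. The authors' score table of 33912 features, deposited beside it, held z-scores of the log signal within each array to within 0.005, and served only as an alternative, put on a log2 scale. From the deposited intensities, log2 values minus each array's 75th percentile (312.5 to 2519.4) were computed. Control spots and outlier spots were left out and spots of a probe averaged. Probes were named through RefSeq accessions (99.0% of 26732 curated mRNA accessions matched). The probe with the highest mean over the 24 arrays stood for a gene.

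KI and WT were compared within a tissue over 6 arrays, and tissues in a fit of 24 arrays in 8 groups, without a filter on low values, both with limma 3.58.1 in R 4.3.3 (lmFit, eBayes, two-sided, Benjamini-Hochberg over all genes, threshold 0.05; tissue calls also needed a log2 difference of 1). Scripts were tested on simulated data. Bounds ("at least") used the lowest level well above background on each array where a tissue had none. With 3 against 3, the smallest p of an exact permutation test is 0.10, and the number of arrays limits the precision. Every tissue came from the same 6 mice, so mouse numbers pair arrays across tissues, not genotypes. Within a mouse the consensus correlation was -0.016.

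All members were counted by detection and family. Values of 5 members are not reported here, and 42 are described and drawn. Named were members with the smallest p for genotype (3 per tissue), those measured throughout another tissue, those not higher in brain than all 3 tissues, the 2 of each family with the largest excess in brain, and a set list of well-known subunits. Members, gene lists and rules were chosen with earlier results of these data known.

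Alternatives were quantile normalization, normexp (offset 50), the scores, the second probe, filters, a log2 limit of 2, the mouse as a block, array slides, leaving out each array or mouse, and, chosen after seeing the data, any probe of a gene.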

Additional observations from a re-analysis of the deposited data

How the results depend on the processing

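No member passed the genotype test under any alternative tried. Over all genes, the 0 genotype calls became 3 in liver in a fit of all 24 arrays, 0 to 1 in heart and 0 to 4 in muscle when each array was left out (heart 1 when KI mouse C was absent, muscle 4 when KI mouse A was), and the difference between tissues called 1 gene after quantile normalization. Of 139 alternative values for 12 named genotype differences, 138 kept direction and side of the threshold; Gabra6 in brain ranged from -2.17 to 0.17 as each array was left out, and turned to 0.17 without KI mouse C.

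Members higher in brain than liver, heart and muscle were 17, 17 and 18 of 21 with the second probe, which only genes with several probes have; all genes then gave 1512, 1251 and 1276 higher and 1871, 1485 and 2231 lower. Members lower in brain than liver were 1 with a log2 limit of 2, 2 after quantile normalization, 1 with normexp, 1 with the second probe, 1 with the filter on low values, and 2 to 4 without each mouse (2 without E). Against heart they were 0 with the second probe, 2 on the shared slide, and 1 to 2 without each mouse (2 without C or D). Against muscle they were 1 with the log2 limit of 2, 1 after quantile normalization, 0 with normexp, 2 with the scores, 2 with the second probe and 1 with the filter. All genes higher in brain with the limit of 2 were 2740 against heart and 2888 against muscle. All genes lower in brain than liver, heart and muscle were 3256, 2653 and 3279 with that limit and 3890, 3548 and 3447 with normexp, and against muscle 4561 after quantile normalization and 5566 with the filter.

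Of 1049 alternative values for 85 named tissue differences, 983 kept direction and side, 40 fell short of the call, 16 passed it and 10 turned. Gabbr2 against liver turned to -0.063 (quantile) and -0.023 (normexp), and against heart to 7.23 (second probe). Gabrr1 against heart became 0.0066 (scores) and -0.25 to 0.15 without each mouse (0.15 without A, 0.021 without E). Gabre against muscle (0.075, normexp), Grm5 against muscle (-0.37, slide as a term) and Grm6 against liver and heart (0.036 and 0.0071, normexp) also turned. Where the construction of a setting does not show it, the cause was not tested.

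With the mouse as a replicate block, which pairs arrays across tissues, members called higher in brain than liver, heart and muscle were 36, 35 and 37 and lower 4, 1 and 4, all genes gave 5117, 4336 and 4489 higher and 7644, 5955 and 8828 lower, and the difference of the KI effect between tissues called 0. The members called were the same genes, and all genes lost 1 to 8 calls per comparison and direction. No paired analysis was possible for KI against WT within a tissue because the genotypes share no mouse. Signals near background limit the differences of Gabrp, Gabrq, Gabrr3 and Grm6.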
